A study of Mus musculus with 56 samples.

Results

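The cells described here are the colon tumor cells of a mouse in which Gdf11, the gene of a secreted growth factor, was listed at 1 TPM or more (TPM are transcript counts scaled to the same total in every library). They were chosen by that threshold alone, and they were 21 of 50 cells (42%, 95% exact binomial interval 28.2% to 56.8%). The other 29 cells, with Gdf11 below 1 TPM, served as the comparison. Mt3 and Vim, which name the state of these cells, had already been seen to go with Gdf11 in these data, so their values are a description and carry no test. All cells came from 1 mouse and are not replicates of a condition, so no p-value is given anywhere, and intervals of shares cover counting error only.

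GDF11 is a ligand of the TGF-beta family and a close relative of myostatin. Its precursor is cut by furin-type proteases, the mature dimer binds activin type II receptors together with the type I receptors ALK4 or ALK5, and the signal passes to SMAD2 and SMAD3. It is best known for patterning the body axis and for restraining the growth of progenitor cells in several tissues. MT3 is a metallothionein, a small cysteine-rich protein that binds zinc and copper, and is best known from the brain. Vimentin, the product of Vim, is the intermediate filament protein of mesenchymal cells, whereas intestinal epithelial cells mostly build their filaments from keratins.

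The mouse was a male of the strain ApcMin/+, whose truncated Apc allele leads to intestinal tumors. It drank 2% dextran sulfate sodium, which injures the colonic lining, for 5 days from 10 weeks of age and was 12 weeks old when sampled. Cells from 3 tumors were mixed before sorting, so a cell cannot be traced to its tumor, and no untreated or tumor-free sample was analysed here. Living cells that carried EPCAM and CD24 but neither CD31 nor CD45 were sorted singly, and cDNA positive for Lgr5 by PCR (32 cycles) went on to Bead-seq libraries. All 50 cells therefore share the genotype, the treatment and the selection for Lgr5.

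The 56 libraries were treated as 50 cells. In 6 pairs the libraries were near-identical (Pearson's r of log2(TPM + 1) above 0.9, with 0.78 as the next highest), and each pair was averaged. No label says whether a pair came from 1 cell. The cells with Gdf11 came from 24 libraries and included 3 averaged pairs. Seen, here, means a value of at least 1 TPM. Between 1316 and 7234 genes were seen per cell with Gdf11 (median 5752), against 3151 to 7172 (median 5974) without it. The cell with 1316 genes, of indexes N708 and N503, stood apart, as the pseudogene Gm10925 took 85.1% of its TPM. The table holds no read counts, so depth was unknown and a value of 0 was read only as listed at 0. Epcam and Cd24a, the genes of the 2 proteins sorted for, were seen in 21 of 21 and 29 of 29 cells. Pecam1 and Ptprc, which encode CD31 and CD45, were seen in 0 of 21 and 0 of 29.

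Gdf11 (ENSMUSG00000025352, chromosome 10, 128882295 to 128891718, minus strand, GRCm38) was listed at 0 in 6 cells, above 0 and below 1 TPM in 23, and at 1 TPM or more in 21. Among the 21 it ran from 1.01 to 821 TPM, with a median of 89.7. Of these, 17 were at 10 TPM or more. The cells just inside the threshold were at 1.01, 1.16, 2.61 and 6.33 TPM, and the next was at 11.7. Just outside were cells at 0.89, 0.89 and 0.80 TPM. No gap marked the threshold, since values ran on from below 1 TPM to above it. Cells with Gdf11 were found under each of the 7 i7 indexes, from 1 of 8 cells of N704 to 5 of 8 of N705 and of N710. In the 3 averaged pairs the libraries read 210 and 195 TPM, 37.8 and 49.97 TPM, and 23.4 and 0 TPM. The last pair entered at 11.7 TPM, although Gdf11 was listed in 1 of its 2 libraries only.

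Mt3 (ENSMUSG00000031760, chromosome 8, 94152607 to 94154146, plus strand, GRCm38) lies in the metallothionein cluster. Its order is Mt4, Mt3, Mt2 and Mt1, all on the plus strand, with 13575 bases between Mt4 and Mt3, 18517 between Mt3 and Mt2 and 5513 between Mt2 and Mt1. The 250 bases before the annotated starts of Gdf11 and Mt3 are shown because these genes went together across cells. Those of Mt2 are shown because this neighbor went with Gdf11 less closely than Mt3 did. The sequences are from RefSeq (GRCm38.p6) and read 5′ to 3′ on the strand of the gene. Capitals mark matches to the core of the metal response element (TGCACNC or TGCGCNC, either strand), the site of the zinc sensor MTF1, and, in Mt2 only, also TGACTCA, a match to the AP-1 site TGANTCA.
Gdf11 (chr10:128891719-128891968, minus strand): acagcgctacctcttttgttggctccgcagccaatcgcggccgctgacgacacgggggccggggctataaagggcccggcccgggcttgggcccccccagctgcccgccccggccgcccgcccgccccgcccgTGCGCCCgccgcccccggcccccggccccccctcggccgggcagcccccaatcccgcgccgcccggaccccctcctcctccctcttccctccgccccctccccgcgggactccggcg
Mt3 (chr8:94152357-94152606, plus strand): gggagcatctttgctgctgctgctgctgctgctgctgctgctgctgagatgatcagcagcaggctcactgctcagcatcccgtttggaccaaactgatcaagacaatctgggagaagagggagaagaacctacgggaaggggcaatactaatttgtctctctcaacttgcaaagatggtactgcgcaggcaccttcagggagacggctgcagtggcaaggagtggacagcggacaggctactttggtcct
Mt2 (chr8:94172368-94172617, plus strand): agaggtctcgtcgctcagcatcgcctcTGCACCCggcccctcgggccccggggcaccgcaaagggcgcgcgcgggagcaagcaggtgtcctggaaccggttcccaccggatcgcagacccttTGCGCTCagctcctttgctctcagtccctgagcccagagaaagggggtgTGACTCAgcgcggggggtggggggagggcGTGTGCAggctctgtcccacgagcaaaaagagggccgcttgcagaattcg
The metal response element matched once in the Gdf11 window, 0 times in that of Mt3 and 3 times in that of Mt2. The windows of Mt4 and Mt1, which are not shown, held 1 match each to this element. Each count depends on the annotated start, and matches outside a window were not counted. It matched in 21.4% of 32851 RefSeq promoter windows of this length, and TGANTCA in 6.75%. None of the 3 windows held the TCF/LEF site CTTTGAT (3.21% of windows) or the palindromic SMAD site GTCTAGAC (0.167%). A match is a stretch of letters and not a shown site.

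Mt3 was seen in 15 of the 21 cells with Gdf11 (71.4%, interval 47.8% to 88.7%) and in 9 of the 29 without (31.03%, interval 15.3% to 50.8%). It ran from 0 to 4224 TPM with a median of 146 in the former, and from 0 to 289 TPM with a median of 0 in the latter. In 8 cells with Gdf11, Mt3 was above the highest value found in any cell without it. On the scale of log2(TPM + 1) the mean was 6.27 ± 4.39 (SD, 21 cells) against 1.59 ± 2.71 (29 cells). The difference of 4.68 was the highest of the 9165 genes compared, which were those at 1 TPM in 20% of cells, with Gdf11 left out. Both groups overlapped, as 6 cells with Gdf11 had Mt3 below 1 TPM.

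Among the cells with Gdf11, Mt3 was seen more often where Gdf11 was higher. All 15 cells that held both genes had Gdf11 at 11.7 TPM or more and Mt3 at 40.6 TPM or more. Mt3 was seen in 15 of the 17 cells where Gdf11 reached 10 TPM (interval 63.6% to 98.5%) and in 0 of the 4 cells with Gdf11 between 1 and 10 TPM (interval up to 60.2%). Within the 21 cells Spearman's rho between the genes was 0.72, and Pearson's r on the log2 scale was 0.78, or 0.70 once the 2 cells most distant from the median Gdf11 were left out. Read from the other side, 15 of 24 cells with Mt3 had Gdf11, and 12 of 15 did so where Mt3 was at 100 TPM or more. Both correlations within the 21 cells include the 6 with Mt3 below 1 TPM. None was computed within the 15 cells that held both genes. The 4 cells with Gdf11 between 1 and 10 TPM include the cell of 1316 genes. Of these 4, only the cell of indexes N705 and N506 lay outside N708 to N710. The cells share 1 mouse, and unknown depth enters both genes of each correlation.

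Vim (ENSMUSG00000026728, chromosome 2, 13573927 to 13582826, plus strand, GRCm38) differed in level more than in presence. It was seen in 20 of 21 cells with Gdf11 and in 23 of 29 without. Its range was 0.78 to 3011 TPM with a median of 1320 in the cells with Gdf11, and 0 to 1934 TPM with a median of 47.3 in the others. At 100 TPM or more there were 20 of 21 cells (interval 76.2% to 99.9%) against 13 of 29 (interval 26.4% to 64.3%). At 1000 TPM or more there were 13 of 21 against 2 of 29, so 13 of the 15 cells highest in Vim had Gdf11. The 1 cell with Gdf11 that was low in Vim was the one with 1316 genes. The mean log2(TPM + 1) was 9.64 ± 2.32 (SD, 21 cells) against 5.54 ± 3.35 (29 cells), and the difference of 4.10 was second to that of Mt3. Within the 21 cells rho was 0.54 between Gdf11 and Vim and 0.57 between Mt3 and Vim. Without the cell of 1316 genes the differences were 4.99 for Mt3 and 4.54 for Vim.

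**Figure D1:**
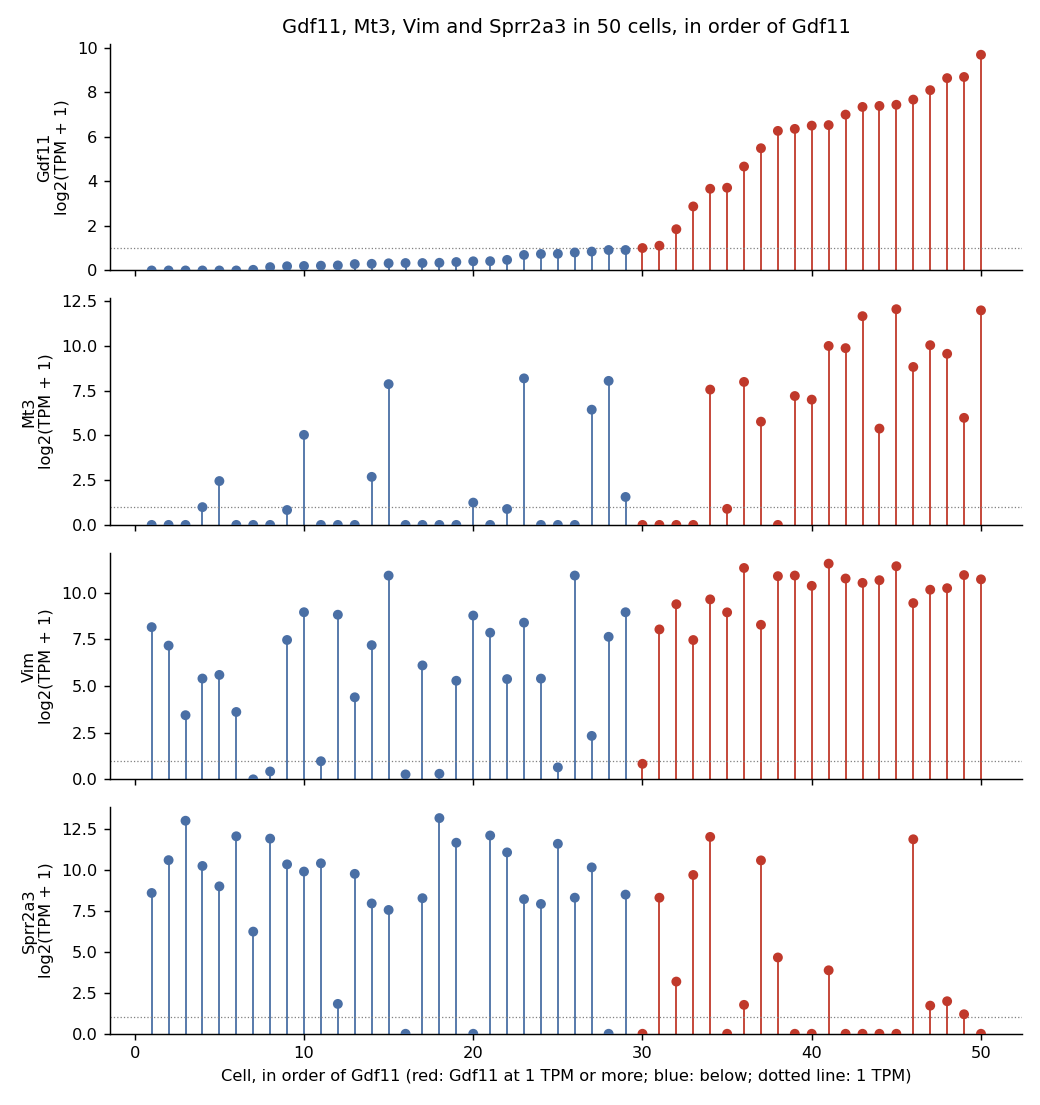
Each of 50 cells is placed in order of Gdf11 along the horizontal axis, and the panels give Gdf11, Mt3, Vim and Sprr2a3 as log2(TPM + 1). Red marks the 21 cells at 1 TPM of Gdf11 or more, blue the 29 below it, and the dotted line 1 TPM. Among the red cells Mt3 is seen in 15 of the 17 with Gdf11 at 10 TPM or more and in 0 of the 4 below that, 9 of the 29 blue cells also hold it, and Sprr2a3 is high in most blue cells.

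Most of the cells with Gdf11 held both state genes. Mt3 at 10 TPM or more was found in 15 of 21 cells with Gdf11 and in 5 of 29 without. Together with Vim at 100 TPM or more it was found in 15 of 21 and in 4 of 29, so Vim added little to Mt3. Of the 19 cells in that state, 15 had Gdf11 (78.9%, interval 54.4% to 93.9%). The other 4 had Gdf11 below 1 TPM, so the state was not confined to cells with Gdf11. In the cells without Gdf11, rho between Mt3 and Vim was 0.46.

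**Figure D2:**
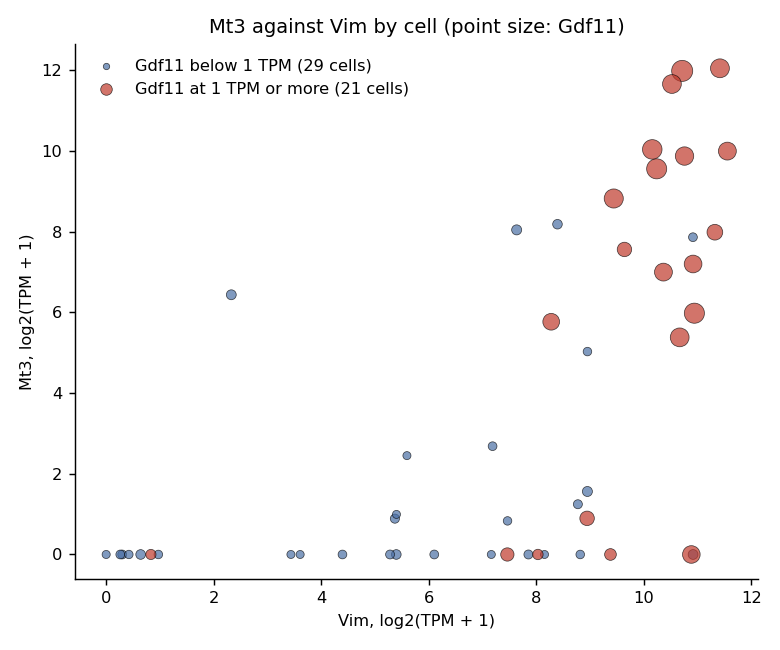
Each point is a cell, with Vim on the horizontal and Mt3 on the vertical axis (both log2(TPM + 1)), and its size follows Gdf11. The cells with both genes high are mostly red (Gdf11 at 1 TPM or more), and 4 blue cells share the region of Mt3 at 10 TPM and Vim at 100 TPM or more.

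The differences were not equal in the index groups of the libraries. The i7 indexes N704 to N707 held 13 cells with Gdf11 and 19 without, and N708 to N710 held 8 and 10. The cell of 1316 genes was among those 8, so every difference given for N708 to N710 includes it. No difference within that group was computed without it. Mt3 was seen in 11 of 13 against 5 of 19 cells in the first group (difference 6.49) and in 4 of 8 against 4 of 10 in the second (difference 1.66). For Vim the differences were 4.96 and 2.72. The share of cells with Mt3 among cells with Gdf11 was thus near that of the others in N708 to N710. All 4 cells with Gdf11 and Mt3 there lay at 53.4 to 451 TPM of Mt3, while cells of N705, N706 and N707 reached 1000 TPM. Whether the index groups differ beyond the chance of so few cells was not tested.

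The 6 cells with Gdf11 but with Mt3 below 1 TPM were the 4 lowest in Gdf11 and a pair at 12.1 and 75.9 TPM. Their Vim ran from 0.78 to 1892 TPM with a median of 377, against 310 to 3011 with a median of 1628 in the 15 cells with Mt3. Prox1, a homeobox factor named in the title of the series, had a median of 0.92 TPM in the 6 and 30.8 in the 15. Plac8 (medians 60.6 and 0.12 TPM), Lgals4 (124 and 9.62 TPM) and Sprr2a3 (16.1 and 1.28 TPM) lay the other way. In the cells without Gdf11 the medians were 8.98 TPM for Prox1, 86.8 for Plac8, 369 for Lgals4 and 855 for Sprr2a3. By these medians, the 6 cells lay below both other groups in Prox1, and between them in Plac8, Lgals4 and Sprr2a3.

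Among all 9165 genes, 373 (4.07%) had a mean at least 1 log2 unit higher in the cells with Gdf11, and 576 (6.28%) had one at least 1 unit lower, with a median difference of -0.05. These shares are the background for every list below. Of the higher genes 313 and of the lower genes 544 had the same sign in both index groups. Without the cell of 1316 genes the counts were 527 higher and 447 lower, so the balance between directions rested partly on that cell.

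**Figure D3:**
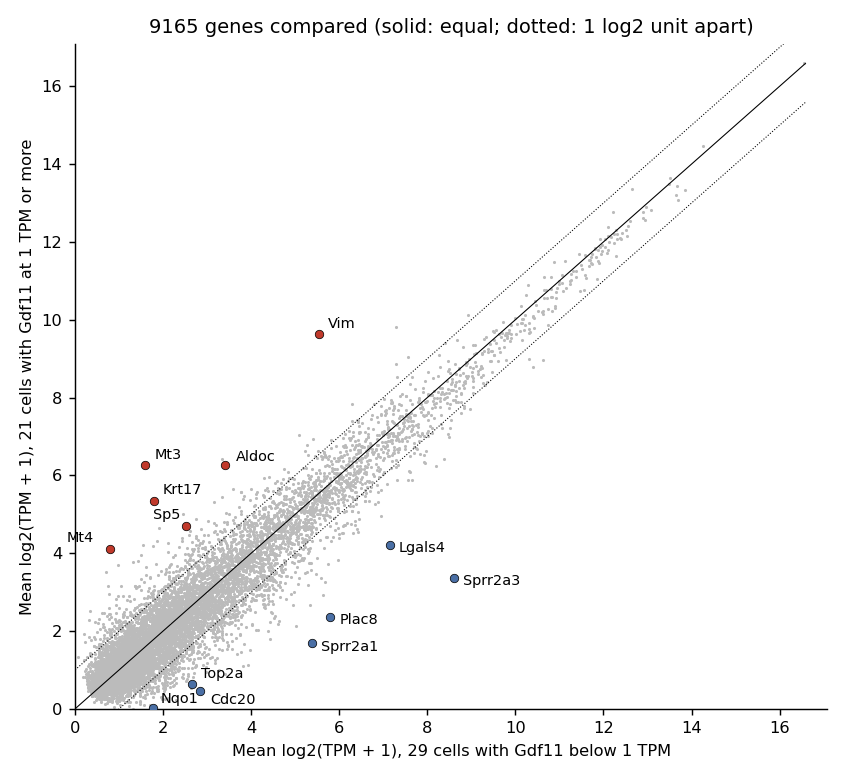
Each of 9165 genes is placed by its mean log2(TPM + 1) in the 29 cells without Gdf11 (horizontal) and in the 21 cells with it (vertical). Dotted lines lie 1 unit from equality (solid line). Mt3 and Vim lie farthest above and Sprr2a3 farthest below.

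The metallothionein and zinc transporter list had 23 genes compared. Of these 5 were higher by 1 unit, 1 was lower, and the median difference was 0.04. Mt4, which is known from stratified epithelia, was seen in 9 of 21 cells with Gdf11, at up to 3356 TPM, and in 4 of 29 without, at up to 192 TPM (difference 3.31). All 9 of those cells were among the 15 with Mt3, and Mt4 was listed at 0 in each of the 6 without Mt3. Mt2 was seen in 20 of 21 and 27 of 29 cells, with a difference of 1.22. For Mt2 the index groups went opposite ways, at 2.59 and -1.16. Mt1, with Mt2 the widely expressed and metal-inducible pair, was seen in every cell at medians of 821 and 497 TPM (difference 0.80). Across the 21 cells rho with Mt3 was 0.66 for Mt4, 0.45 for Mt2 and 0.04 for Mt1. Mt3 thus went with its neighbor Mt4, which lies upstream, and hardly with Mt1. The zinc importer genes Slc39a14 (1.10, and -0.31 in N708 to N710) and Slc39a3 (1.07) were higher and Slc39a4 (-1.01) was lower. Mtf1, the gene of the zinc sensor, stood at 0.00. No word of 30 bases was shared between transcripts of Mt3 and those of Mt1, Mt2 or Mt4, so these genes can be told apart by reads of that length or more.

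Few genes of mesenchymal cells differed besides Vim. Of 14 genes of the mesenchymal and epithelial-to-mesenchymal transition list that were compared, 2 were higher (Vim and the membrane protease gene Mmp14 at 1.09), and 1 was lower, the fibronectin gene Fn1 (-1.33, and -0.19 in N708 to N710). Mmp14 stood at -0.59 when any value of Gdf11 above 0 counted, and the transition factor gene Tcf4 was just under 1 unit at 0.93. The median difference was 0.23. The transition factors Zeb1, Zeb2 and Twist1 and the cadherin gene Cdh2 were seen in 0 of 50 cells, and Snai1 and Snai2 in 0 of 21 with Gdf11. Cdh1, the gene of E-cadherin, was seen in all 21 cells, with a difference of 0.14, and of 11 epithelial genes compared 0 passed 1 unit. Many markers of other cell types were seen in no cell. Of 9 fibroblast markers, 7 were seen in no cell, with a summed level of 0 to 4.47 TPM in cells with Gdf11 and 0 to 8.92 TPM in the others. Of 14 immune markers 9 were seen in no cell. Their summed level was 0 to 246 TPM with Gdf11 and 0 to 114 TPM without, with medians of 0.96 and 0.81 TPM. Of 7 endothelial markers 4 were seen in no cell, and the sum stayed at or below 13.5 TPM. Among 7 smooth muscle and pericyte markers 3 were seen in no cell and 2 were compared, with a median difference of 0.72. Only Acta2 was higher, seen in 14 of 21 cells against 9 of 29 (difference 1.39). The summed level of the 7 markers ran from 0 to 136 TPM (median 23.7) with Gdf11 and from 0 to 148 TPM (median 1.41) without. Des was listed below 1 TPM in every cell. The part of other cell types in the Vim values was not tested.

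Among 10 intermediate filament and lamin genes compared, 2 were higher, Vim and Krt17, with a median difference of 0.01. Krt17, a keratin of basal and wounded epithelia, was seen in 16 of 21 cells with Gdf11 and in 8 of 29 without, with medians of 59.8 and 0 TPM and a difference of 3.55. At 100 TPM or more there were 10 of 21 and 5 of 29 cells. Of the keratins of simple epithelium, Krt8 stood at 0.06 and Krt18 at 0.38. Krt19 was just short of 1 unit lower, at -0.97, and stood at -1.29 in N708 to N710. Of 30-base words of Krt17, 12.5% also occur in Krt14 and 2.43% in Krt16. Krt14 was low in both groups, with a median of 0.38 TPM in each.

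The genes of the GDF11 pathway itself were mostly even between the groups. Of 5 other genes compared in the list of TGF-beta family ligands, 0 passed 1 unit, with a median difference of 0.43. The nearest was Bmp7, just under 1 unit (seen in 14 of 21 and 8 of 29 cells), and Gdf15, a stress-induced ligand, stood at 0.43. Bmp1 (0.58), counted in this list, encodes a protease and not a ligand. Mstn, the gene of myostatin, was seen in 0 cells, and it shares no 30-base word with Gdf11. Among 9 receptor genes 0 passed, with a median of 0.02. The GDF11 type I receptor gene Acvr1b was seen in 16 of 21 and 19 of 29 cells (0.77), and Tgfbr1 in 6 and 11. Of the type II receptors, Acvr2a was seen in 5 and 7 cells and Acvr2b in 2 and 1.

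Of 15 genes for SMADs and their regulators, 1 was higher and the median was 0.33. It was Smad5 (1.09), a transducer of the BMP branch, whereas Smad2 (-0.30) and Smad3 (-0.06) of the GDF11 branch and the shared Smad4 (0.02) did not pass. Of 3 genes compared in the list of GDF11 processing and extracellular antagonists 0 passed. Furin, the gene of a protease that cuts precursors of this family, stood at -0.16 and was seen in 15 and 21 cells. Among 9 response genes 0 were higher and 2 were lower, against 6.28% of all genes. These were Id1 (-1.31), a BMP target that blocks differentiation factors, and the cell cycle inhibitor gene Cdkn2b (-1.20). For Cdkn2b the direction turned when any value of Gdf11 above 0 counted (1.18) and with TPM rescaled without Gm10925 and ribosomal protein genes (0.39). The inhibitory SMAD gene Smad7 was seen in 1 and 0 cells and was not compared.

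**Figure D4:**
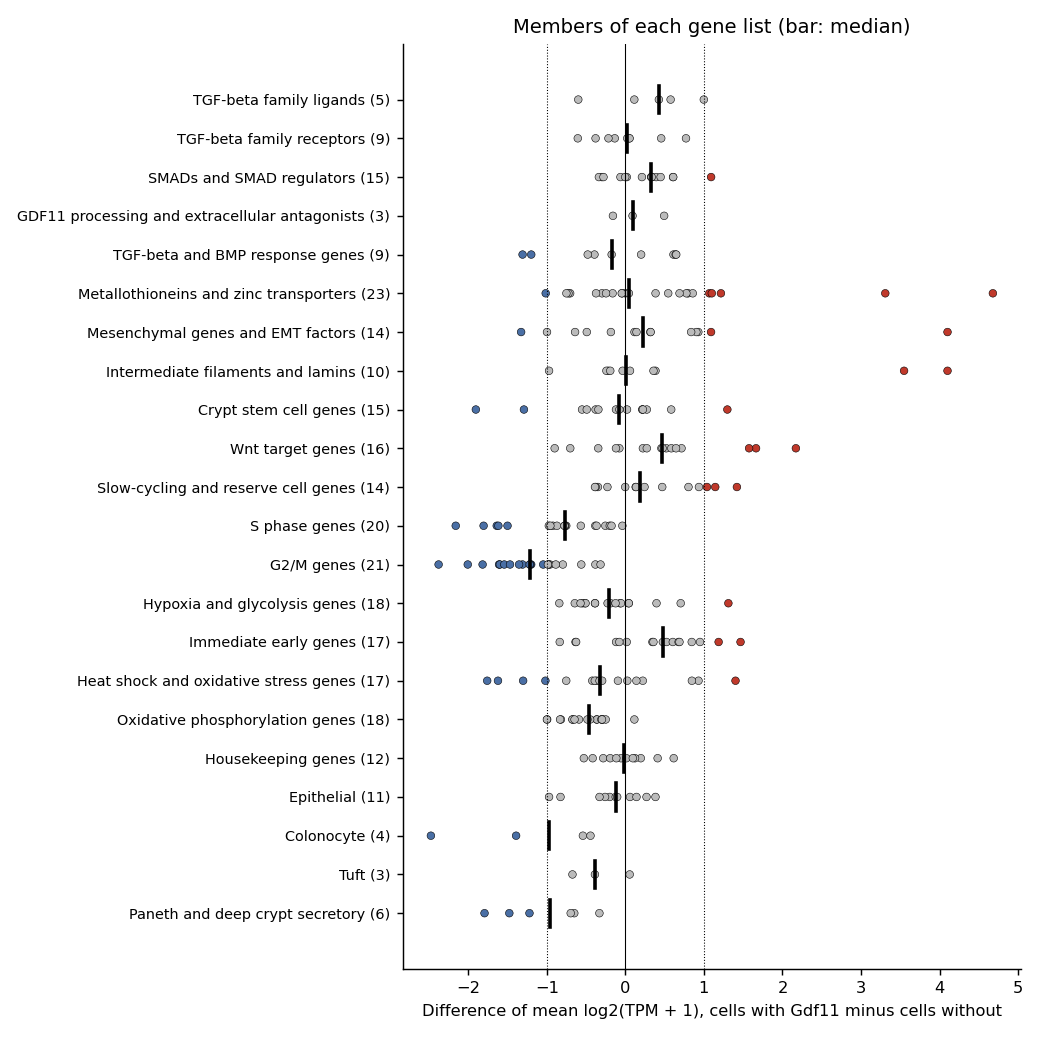
Each point is a gene of a list, placed by its mean log2(TPM + 1) in cells with Gdf11 minus that in cells without, with the number of genes compared in brackets and the median as a bar. Red and blue points lie beyond 1 unit. The G2/M and S phase lists lie wholly below 0, at medians of -1.21 and -0.77.

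Cell cycle genes were lower in cells with Gdf11. Of 21 G2/M genes compared, 13 were lower by 1 unit and all 21 were below 0, against 6.28% of all genes lower by 1 unit. Cdc20, an activator of the anaphase-promoting complex, was seen in 2 of 21 and 13 of 29 cells (-2.38). Top2a, the mitotic topoisomerase, was seen in 3 of 21 and 15 of 29 (-2.01). Mki67 was seen in 4 of 21 (19.05%, interval 5.45% to 41.9%) and 10 of 29 (34.5%, interval 17.9% to 54.3%), and these intervals overlap. Of 20 S phase genes 5 were lower, the helicase genes Mcm2 (-2.16), Mcm5 (-1.64) and Mcm6 (-1.50) with Tyms (-1.81) and Dut (-1.62) of thymidine synthesis, and all 20 were below 0. Members of these lists go together within a cell, so their signs are not separate observations. Cells with at least 15 of 30 G2/M genes were 3 of 21 with Gdf11 and 8 of 29 without. Among the cells with fewer than 15, 18 with and 21 without Gdf11, the G2/M list had 1 of 7 genes lower (median -0.36) and the S phase list 5 of 14 (median -0.68). Fewer genes reached 20% of cells there, so these medians are over fewer genes than those of all cells. Of the 8889 genes compared in these 18 and 21 cells, 4.94% were higher and 6.54% lower by 1 unit.

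Genes of slow-cycling cells were split. Of 14 compared, 3 were higher and 0 lower, with a median of 0.19. Cdkn1c, the gene of the inhibitor p57, was seen in 11 of 21 and 6 of 29 cells (1.42), and it overlaps the antisense gene Gm44732. Mex3a, a marker of slow crypt progenitors, differed by 1.14 and Prox1 by 1.04. Prox1 was seen in 18 of 21 cells (median 27.5 TPM) and 23 of 29 (median 8.98 TPM). Its difference was 2.19 in N704 to N707 and -0.87 in N708 to N710, that of Mex3a was 1.85 and -0.03, and that of Cdkn1c was 2.16 and 0.26. None of the 3 genes passed 1 unit in both index groups. Within the 21 cells rho between Gdf11 and Prox1 was 0.60. Cdkn1a (0.13), Cdkn1b (-0.23) and Hopx (-0.35) did not pass.

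A few genes of the list of Wnt targets were higher in the cells with Gdf11. Of 16 compared 3 were higher and 0 lower, against 4.07% and 6.28% of all genes, and the median was 0.47. Sp5, a transcription factor induced by Wnt, had medians of 41.4 and 0.54 TPM (2.17). The Wnt inhibitor gene Apcdd1 stood at 1.66, and at -0.01 in N708 to N710, and Dkk3 at 1.57. Axin2 (0.46), Nkd1 (0.52) and Notum (0.47) were on the same side below 1 unit, whereas Ccnd1 (-0.90) and Myc (-0.35) were on the other. In N708 to N710 alone Axin2 stood at 0.05, Nkd1 at 0.05 and Notum at 0.09, and Rnf43 (-0.16), Znrf3 (-0.02), Lgr5 (-0.51) and Tnfrsf19 (-0.72) were below 0. Among 15 crypt stem cell genes 1 was higher, the ephrin receptor gene Ephb3 (1.30, and -0.49 with TPM rescaled), and 2 were lower, the stem cell factor gene Ascl2 (-1.90, seen in 6 of 21 and 16 of 29 cells) and Cdca7 (-1.29). When any value of Gdf11 above 0 counted, which left 6 cells without it, Ascl2 stood at -0.0402. Lgr5, for which the cDNA had been selected, was seen in 14 of 21 and 24 of 29 cells at medians of 2.23 and 2.12 TPM.

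**Figure D5:**
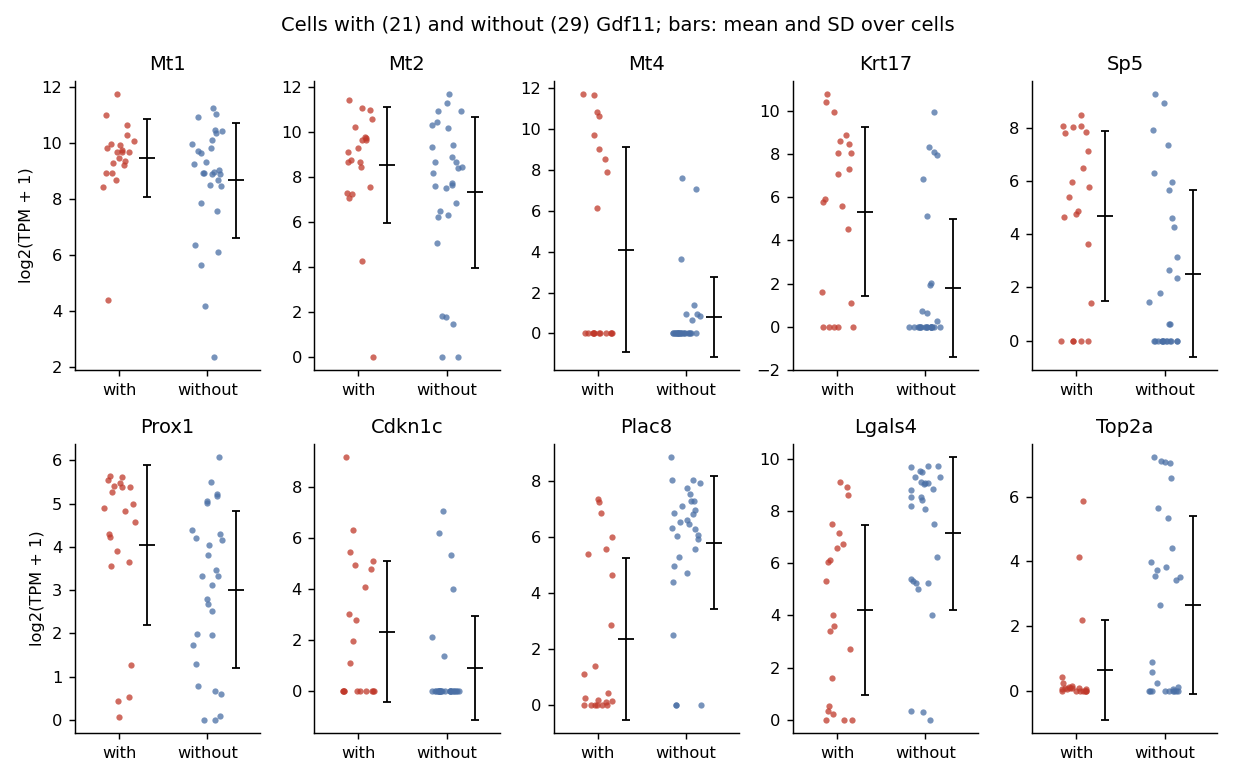
Points are cells with (red, 21) and without (blue, 29) Gdf11, and the vertical axis is log2(TPM + 1) of the gene named above each panel. Bars give the mean and SD over cells, which are not replicates. Mt4, Krt17 and Sp5 reach 1 TPM in a larger share of the cells with Gdf11 (Sp5 in 16 of 21 and 14 of 29), Plac8, Lgals4 and Top2a in a smaller share, and Mt1 in all.

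The 10 genes farthest above, of those with the same sign in both index groups, were led by Mt3, Vim, Krt17 and Mt4. Next came Smpd2 (3.08), a neutral sphingomyelinase gene that overlaps Mical1, and Aldoc (2.88), the glycolytic aldolase of brain. Aldoc was seen in 17 of 21 and 16 of 29 cells. The long noncoding RNA 2700046A07Rik (2.80) was seen in 12 of 21 and 4 of 29 cells. Rogdi (2.71), which overlaps the antisense gene Gm42477, and Pnliprp1 (2.66), a gene of the pancreatic lipase family, were also among them.

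The genes whose values were most like those of Gdf11 across the 50 cells, by Spearman's rho and with the same sign in both index groups, were Vim (0.68), Spock2 (0.67) and Mt3 (0.63). Evx1os (0.63), Ptn (0.61), Esyt3 (0.61), Aldoc (0.60), 2700046A07Rik (0.60), Tbx3 (0.59) and Aplp2 (0.59) followed. Spock2, the gene of a secreted proteoglycan, was seen in 19 of 21 cells with Gdf11 and 16 of 29 without. Ptn encodes the growth factor pleiotrophin and Tbx3 a T-box factor, which was seen in 19 and 25 cells. Evx1os is antisense to Evx1, and Tbx3 overlaps Tbx3os1.

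Sprr2a3, of a gene family known from the cornified envelope of skin, led the genes that were lower. It reached 100 TPM in 5 of 21 cells with Gdf11 and in 24 of 29 without. Its range was 0 to 4075 TPM (median 2.28) in the former and 0 to 9019 TPM (median 855) in the latter. Its mean log2(TPM + 1) was 3.37 ± 4.35 (SD, 21 cells) against 8.62 ± 3.74 (29 cells). The difference of -5.25 was the lowest of all genes and stood at -5.95 and -4.31 in the index groups. Sprr2a3 and Sprr2a1 (-3.70) share 74.1% of the 30-base words of Sprr2a3, so values of either are uncertain as to the copy. Next were Plac8 (-3.43), Lgals4 (-2.93), which encodes an epithelial galectin, Gstt2 (-2.90), Galk1 (-2.78), Noxo1 (-2.72), Mfsd5 (-2.70), Rnf186 (-2.68) and Trac (-2.63). Noxo1 encodes the organizer subunit of the NADPH oxidase NOX1 and overlaps Tbl3. Trac is the constant gene of the T cell receptor alpha chain and was seen in 7 of 21 and 20 of 29 cells, while Cd3e and Ptprc were seen in 0 of 50.

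The colonocyte, Paneth and goblet marker lists also had genes that were lower and none that were higher. Of 4 colonocyte genes compared 2 were lower, the adhesion gene Ceacam1 (-2.48, seen in 6 of 21 and 21 of 29 cells) and the uroguanylin gene Guca2b (-1.39). Of 6 Paneth and deep crypt secretory genes 3 were lower, Defa24 (-1.79), Lyz1 (-1.48) and Defa17 (-1.22, and 0.73 in N708 to N710), and 1 cell without Gdf11 held Defa24 at 239134 TPM. The summed level of the whole Paneth list had a higher median with Gdf11 (620 TPM) than without (443 TPM), opposite to these differences of mean log2. Agr2, the 1 goblet gene compared, stood at -1.29. Of 3 tuft cell and 2 enteroendocrine genes compared 0 passed, at medians of -0.39 and 0.19, and of 10 glial and neuronal markers 6 were seen in no cell and 0 were compared. Among genes linked to fetal-like and regenerating epithelium, Ly6a (-1.66), Anxa1 (-1.55), Il33 (-1.31) and Anxa3 (-1.22) were lower. Other genes of that list lay on both sides of 0, and its counts are not reported here, so the named ones alone do not describe the list. Il33 stood at 0.0397 and Anxa3 at -0.0261 when any value of Gdf11 above 0 counted.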

How the data were processed

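Single-cell RNA-seq libraries (Bead-seq) of sorted colon tumor cells of 1 mouse were analysed. The authors deposited TPM for 24410 Ensembl gene IDs in 56 libraries; TPM scale each library to a fixed total, keep no depth and make a gene's value depend on the others. The submitters' processing notes list RSEM 1.2.31, Bowtie2 2.2.9, the build GRCm38.p4 and bcl2fastq 1.8.4. The settings, the annotation release and whether strand was used are each not given in the sources used here. The index pair in a column's name gave its sample.

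Libraries paired at Pearson's r above 0.9 of log2(TPM + 1), over 8996 genes at 1 TPM in 20% of libraries, were averaged (6 pairs, 50 cells). Symbols and coordinates came from GENCODE M21 (GRCm38), which matched 24235 IDs, and promoter windows from RefSeq. Cells with Gdf11 at 1 TPM or more were set against the others by the difference of mean log2(TPM + 1), with a pseudocount of 1, over genes at 1 TPM in 20% of cells (10 cells), and a difference of 1 counted as higher or lower. Cells of 1 mouse are not replicates, so no test was run. Shares have Clopper-Pearson intervals at 95%. The genes named were Gdf11, Mt3 and Vim, the 10 highest and 10 lowest differences and the 10 genes most like Gdf11 by rho (same sign in both i7 index groups), list members past 1 unit, and check genes; 1 of the 10 highest and the counts of its list, of regenerative and fetal-like genes, are not reported here, and further members were chosen with their values known. The members and all lists (19 gene lists and 11 cell type marker lists) were chosen with earlier results of these data known. Doublets were not called, since the table holds no counts and each cell was sorted into its own well.

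Alternatives were other thresholds, pseudocounts and filters, TPM rescaled without Gm10925 and ribosomal protein genes, an adjustment for genes per cell, subsets of cells, and leaving out each index. The scripts were tested on simulated data. The software was Python 3.11.15 with SciPy 1.17.1, pandas 2.3.3, numpy 2.4.6 and matplotlib 3.10.9.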

Additional observations from a re-analysis of the deposited data

How the results depend on the processing

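The share of cells with Gdf11 was 88% when any value above 0 counted, for Gdf11 and for being seen alike. Vim was then seen in 100% of cells without Gdf11, and 610 genes were higher and 1175 lower by 1 unit, against 373 and 576. With 10 TPM required both of Gdf11 and of a gene to be seen, 17 cells had Gdf11, Mt3 was seen in 15.2% of the others, and the counts were 794 and 366. The counts were 988 and 1529 with a pseudocount of 0.1, and 49 and 66 with 10. With TPM rescaled, 28 cells had Gdf11 and the counts were 564 and 840. Within N704 to N707, 873 genes were higher, and within N708 to N710, which hold the cell of 1316 genes, 1776 were lower. The cause was not tested. Vim was seen in 100% of cells with Gdf11 at 10 TPM, in cells with 2000 genes or more, within N704 to N707, and without the cells at 1 to 10 TPM of Gdf11, where 680 genes were higher. Leaving out each index in turn gave 93.75% to 100% of cells with Gdf11 for Vim, 339 to 662 genes higher (662 without N708) and 401 to 839 lower.

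Of 81 genes recomputed under up to 31 settings, 70 kept their sign in each. They were chosen by their difference in these same cells, and some also by an equal sign in both index groups, which are among the settings. Most settings reuse most of the cells, so a kept sign is no independent support. Mt3 ranged from 1.66 to 6.49, Vim from 1.94 to 4.96, Krt17 from 1.98 to 4.93 and Sprr2a3 from -6.51 to -3.78. The sign was opposite within N708 to N710 for Mt2 (-1.16), Prox1 (-0.87), Slc39a14 (-0.31), Mex3a (-0.0341), Apcdd1 (-0.0149) and Defa17 (0.73). It was opposite with Gdf11 above 0 for Cdkn2b (1.18), Hspb1 (-0.47), Mmp14 (-0.59) and Il33 (0.0397). The difference fell near 0 in that setting, without turning, for Ascl2 (-0.0402), Rogdi (0.0546), Anxa3 (-0.0261), Smad5 (0.13), Slc39a3 (0.13), Aplp2 (0.14) and Defa17 (-0.17). The sign was opposite with rescaled TPM for Cdkn2b (0.39) and Ephb3 (-0.49). Leaving out the 6 averaged cells, the cells at 1 to 10 TPM of Gdf11 or the cell highest in Defa24 was chosen after seeing the data. No paired analysis was possible because the labels give 1 group of cells. Depth is unknown, so a gene below 1 TPM may have been missed.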

Other observations

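Some heat shock and oxidative stress genes were lower in the cells with Gdf11, beside 4.07% of all genes higher and 6.28% lower by 1 log2 unit. Of 17 heat shock and oxidative stress genes compared, 1 was higher and 4 were lower. The detoxifying reductase gene Nqo1 was seen in 0 of 21 cells with Gdf11 (interval up to 16.1%) and in 12 of 29 without (-1.76). Gclc, of glutathione synthesis, was seen in 2 of 21 and 17 of 29 cells (-1.30), and Gpx2, an intestinal glutathione peroxidase gene that overlaps Fntb, had medians of 869 and 1861 TPM (-1.62). Hspa1a stood at -1.02 (-0.21 with TPM rescaled), whereas the small heat shock gene Hspb1 stood at 1.40 (-0.47 when any value of Gdf11 above 0 counted). Hmox1 was seen in no cell. Nqo1, Gclc and Gpx2 were lower by more than 1 unit in both index groups.

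Immediate early genes respond to tissue dissociation among other stimuli, and of 17 compared 2 were higher, Fosl1 (1.47) and Atf3 (1.19), and the median was 0.48. All 18 oxidative phosphorylation genes stayed within 1 unit, with 17 below 0 and a median of -0.47. That median was -0.17 without the cell of 1316 genes. Of 18 hypoxia and glycolysis genes 1 was higher, Pfkfb3 (1.31), with a median of -0.21. The 12 housekeeping genes had a median of -0.02.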
